A study of Homo sapiens with 6 samples.

Results

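The claudins described here are CLDN1, CLDN2, CLDN3, CLDN4, CLDN6, CLDN7, CLDN9, CLDN10, CLDN12 and CLDN14, 10 of the 24 claudin genes among the 19202 genes of the count table. They were chosen by gene symbol as a family, with their counts in the resistant and control libraries already known, so the difference between resistant and control cells is given for them as a description and without a test. RNA sequencing covered 3 libraries of sorafenib-resistant MHCC97H cells and 3 of sorafenib-sensitive control cells. MHCC97H is a human liver cancer line selected for its tendency to metastasise. Sorafenib, a drug for advanced liver cancer, blocks RAF and several receptor tyrosine kinases. The labels give no other genotype or agent, and the sources used here do not give how resistance was raised, whether the drug was present at harvest or whether replicates were separate cultures. The p-values below therefore measure only library-to-library spread, and that spread may be technical.

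Claudins are small membrane proteins with 4 membrane-spanning segments that polymerise into the strands of tight junctions, the seals between neighbouring epithelial cells. Some, such as claudin-2, form pores for ions and water in the space between cells, and others, such as claudin-1, tighten that space. Most end in a short motif that binds the PDZ domains of the ZO scaffold proteins, which tie the strands to actin. In the liver, tight junctions close the bile canaliculi between hepatocytes and keep bile from blood.

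Total counts ran from 3745068 to 4961907 in resistant libraries and from 1913469 to 5345272 in control libraries. Levels are CPM, the count of a gene scaled to the library's total and TMM factor, and fold changes are log2 of resistant over control from edgeR's quasi-likelihood fit over 10804 genes, with a standard error (SE). Of all genes tested, 24.1% were called at an adjusted p of 0.05, 11.7% higher and 12.3% lower in resistant cells, and the median log2 fold change was -0.006. Epithelial keratins were abundant in all 6 libraries, with KRT8 at 1010 to 1209 CPM in resistant and 1105 to 1401 CPM in control libraries, while the liver markers APOA1 and TTR had at most 1.17 CPM. Of the other liver markers, ALB had 1.62, 6.58 and 8.39 CPM in resistant replicates 1, 2 and 3. In control replicates 1, 2 and 3 it had 13.4, 17.7 and 20.8 CPM. SERPINA1 had 1.88 to 3.79 CPM in resistant and 7.2 to 8.66 CPM in control libraries. Neither overlapped between groups, as was so for 38.1% of all tested genes. AFP overlapped, with 2.86 to 3.76 CPM in resistant and 0.587 to 4.11 CPM in control libraries, and GPC3 had at most 0.541 CPM. The part of these markers in the claudin values was not tested. Control replicate 1, the shallowest library, had the highest CDH1 (41.1 CPM, against 10.5 and 11.1 CPM in the other control libraries) and the highest EPCAM (5.14 CPM, against 0.377 and 1.17 CPM). CDH1 had 7.04, 10.3 and 9.21 CPM in resistant replicates 1, 2 and 3, each below every control library, as was so for 18.9% of all tested genes. Resistant replicate 3 had 129.7 CPM summed over 4 endothelial markers, against 40.6 and 50.1 CPM in the other resistant and 50.2 to 68.2 CPM in the control libraries. In bulk RNA, fewer cells that express a gene and less RNA of it per cell cannot be told apart.

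All 10 claudins had counts in at least 1 library, and 5 of them (CLDN1, CLDN2, CLDN4, CLDN7 and CLDN12) passed the filter on low counts. Of these 5, CLDN1, CLDN4 and CLDN12 were among the genes called higher, CLDN2 was among those called lower and CLDN7 was not called, where 24.1% of all tested genes were called. Because the choice of the claudins used these same values, this is a description from which nothing is read. For the 4 called claudins the resistant and control libraries did not overlap. Over all tested genes 38.1% did not overlap, 19.2% with the resistant libraries above and 18.9% with them below. CLDN3, CLDN6, CLDN9, CLDN10 and CLDN14 had between 0 and 26 counts over a group, and no group of 3 libraries reached 4 CPM on average.

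**Figure D1:**
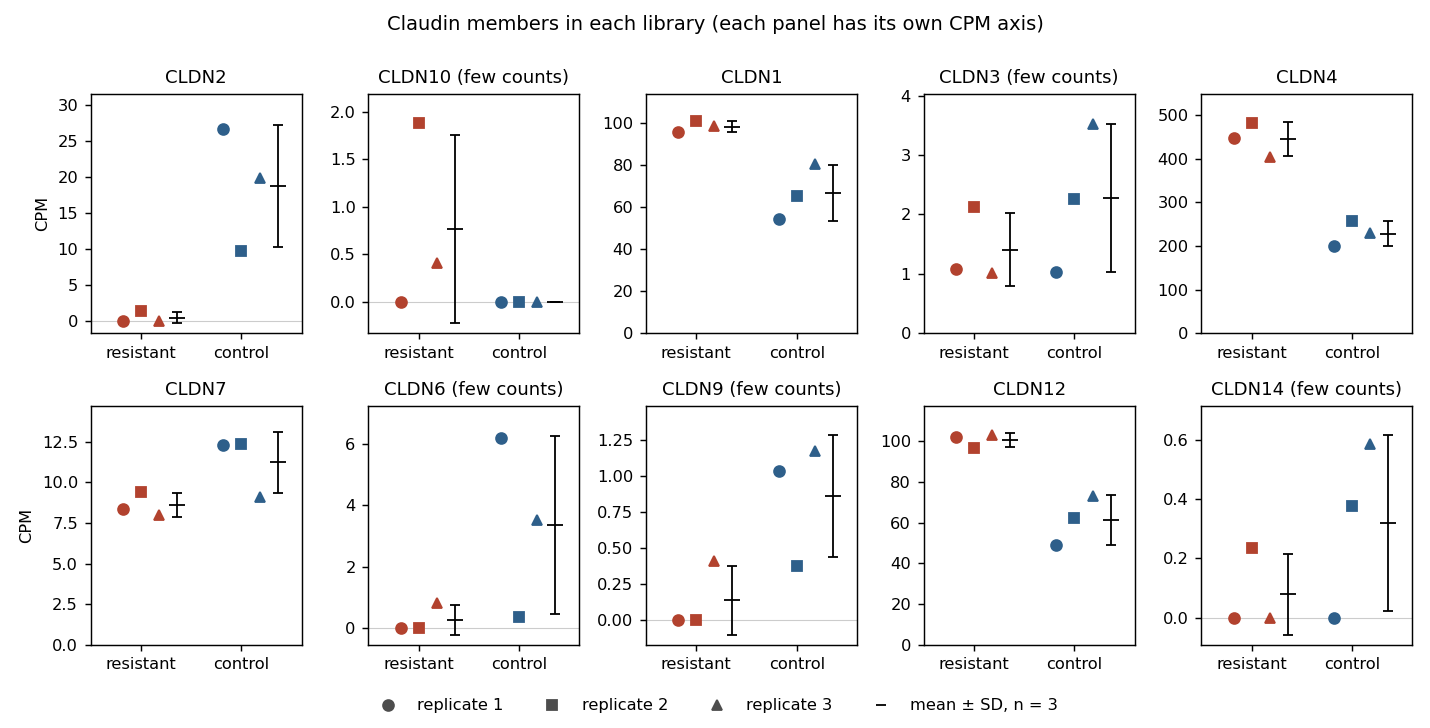
CPM of the 10 claudins in each of 3 resistant and 3 control libraries (marker shapes are replicates, the dash and bar are mean ± SD, n = 3; each panel has its own axis). CLDN2 lies at 0 to 1.41 CPM in resistant against 9.79 to 26.7 CPM in control libraries, and CLDN1, CLDN4 and CLDN12 lie higher in each resistant library than in any control library.

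To compare claudins with each other, levels were divided by exon length (CPM per kb of exon). CLDN4 was the most abundant in every library, with 94.6 ± 8.33 CPM per kb in resistant and 48.6 ± 6.1 CPM per kb in control cells (SD, n = 3 each). CLDN1 came next at 26.9 ± 0.72 in resistant and 18.2 ± 3.59 CPM per kb in control cells, and then CLDN12 at 14.9 ± 0.527 in resistant and 9.1 ± 1.8 CPM per kb in control cells. Summed over the 10 claudins, the level was 140.9, 151.0 and 133.0 CPM per kb in resistant replicates 1, 2 and 3, against 82.2, 91.9 and 96.7 CPM per kb in control replicates 1, 2 and 3. Each resistant library exceeded each control library in this sum over the 10 chosen claudins, of which CLDN4 was the largest part.

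The make-up of this sum also differed. CLDN4 made up 67.7, 67.9 and 64.6% in resistant replicates 1, 2 and 3, against 51.6, 59.5 and 50.4% in control replicates 1, 2 and 3. CLDN1 held close shares in both groups, 19.0 ± 1.06% in resistant and 20.1 ± 2.42% in control cells, as did CLDN12 with 9.49 to 11.5% in resistant and 8.81 to 11.2% in control libraries (SD, n = 3 each for CLDN1). The order of CLDN1 and CLDN12 rests on the length used: with the longest transcript in place of all exons both held 16.7% in resistant cells. CLDN2 held 0.0913 ± 0.158% in resistant and 6.24 ± 3.21% in control cells, and CLDN7 2.43 ± 0.0589% in resistant and 5.08 ± 1.17% in control cells. A share also falls when the sum rises, and the level of CLDN7 itself overlapped between groups. In control cells the levels per kb of CLDN2 (5.52 ± 2.5), CLDN7 (4.53 ± 0.763), CLDN6 (1.93 ± 1.67) and CLDN3 (1.78 ± 0.978) lay in part within each other's spread. In control libraries CLDN4 and CLDN1 were at ranks 1 and 2 in all 3, while CLDN2, at 7.84 CPM per kb, exceeded CLDN12, at 7.25 CPM per kb, in control replicate 1 and lay below it in the others. In resistant cells CLDN4, CLDN1, CLDN12 and CLDN7 held ranks 1 to 4 in all 3 libraries, CLDN7 at 3.45 ± 0.294 CPM per kb.

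**Figure D2:**
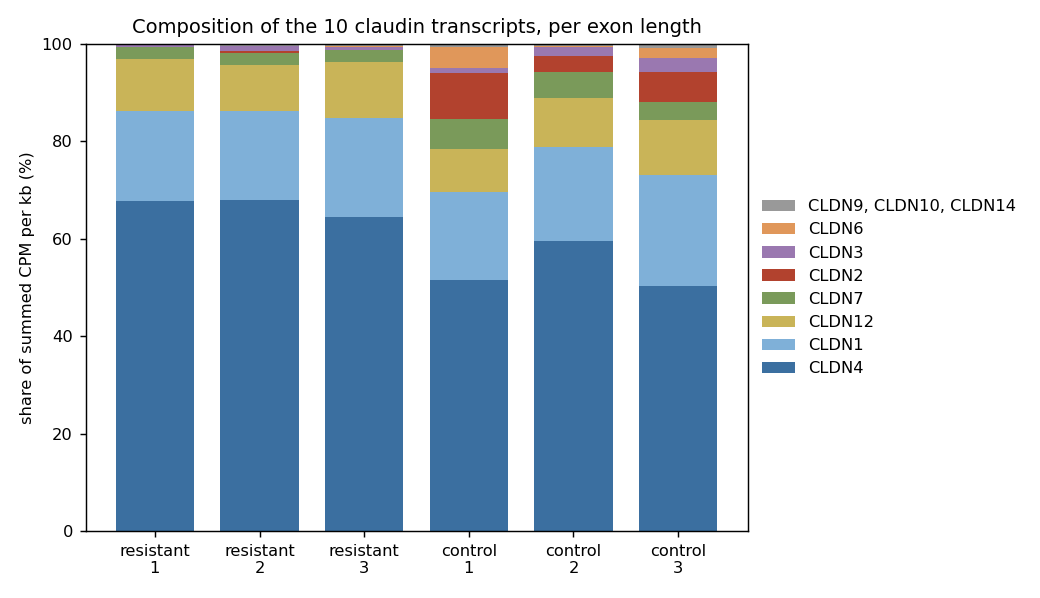
Share of each claudin in the summed CPM per kb of exon of the 10 claudins, in percent, for each resistant and control library. The CLDN4 share is 64.6 to 67.9% in resistant against 50.4 to 59.5% in control libraries, and the CLDN2 share is at most 0.274% in resistant against 3.13 to 9.54% in control libraries.

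CLDN2 encodes claudin-2, which forms a paracellular channel for cations and water in leaky epithelia. Its gene lies on chromosome X from 106900164 to 106930861 on the plus strand (GENCODE 29, GRCh38; the sources used here name no build for the counts). CLDN2 had 0, 1.41 and 0 CPM in resistant replicates 1, 2 and 3 (0, 6 and 0 counts), against 26.7, 9.79 and 19.9 CPM in control replicates 1, 2 and 3 (52, 52 and 68 counts). The transcript was thus present in all 3 control libraries and seen in 1 resistant library, and the groups did not overlap. The log2 fold change was -5.19 (SE 0.63). It rests on 6 counts in resistant and 172 in control cells, and CLDN2 passed the count filter through the control libraries alone. Most counts are even, as when both mates of a read pair are counted, so a limit at 0 was set at 3 pairs of 2 counts. That allows up to 1.6 and 1.21 CPM in resistant replicates 1 and 3 (counting error only). Without resistant replicate 2 the resistant group was at 0, and the control mean of 18.8 CPM was 27.3-fold the limit of 0.689 CPM (3 pairs, or 6 counts, over the group). That ratio takes the control mean as exact, though control libraries ran from 9.79 to 26.7 CPM, and edgeR's fitted -9.13 is no bound. Control replicate 1, highest in CLDN2, was also highest in CDH1 and EPCAM, whose part in the result was not tested. Leaving it out gave a log2 fold change of -4.88.

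Promoter windows of 300 bases, from 250 before to 50 after a RefSeq start site (GRCh38.p14), are shown for the claudins that differed and for CLDN7, to set the start sites of CLDN2 beside those of the claudins that were higher. Each is written 5′ to 3′ along the gene, and capitals mark matches on either strand to a TATA box (TATAAA), an Sp1 box (GGGCGG), an E-box (CACCTG), a CDX site (TTTATGG), a GRHL site (AACCGGTT) or an AP-1 site (TGANTCA). None of these patterns contains another, though matches may overlap in part. A match is a run of letters and not a bound site. CLDN2 has 2 windows.
CLDN2 at chrX:106899914-106900213 (+ strand): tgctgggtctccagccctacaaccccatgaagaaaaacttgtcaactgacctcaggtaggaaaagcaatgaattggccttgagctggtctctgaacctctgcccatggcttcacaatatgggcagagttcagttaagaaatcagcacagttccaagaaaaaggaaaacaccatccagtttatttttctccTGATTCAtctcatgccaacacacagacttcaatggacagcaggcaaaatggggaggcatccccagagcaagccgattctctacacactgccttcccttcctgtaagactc
CLDN2 at chrX:106918110-106918409 (+ strand): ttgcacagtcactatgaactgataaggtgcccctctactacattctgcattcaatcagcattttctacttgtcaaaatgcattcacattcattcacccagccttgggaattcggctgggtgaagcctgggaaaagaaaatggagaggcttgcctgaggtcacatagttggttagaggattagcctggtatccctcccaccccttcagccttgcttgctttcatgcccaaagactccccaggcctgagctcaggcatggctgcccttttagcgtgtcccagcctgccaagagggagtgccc
CLDN4 at chr7:73830746-73831045 (+ strand): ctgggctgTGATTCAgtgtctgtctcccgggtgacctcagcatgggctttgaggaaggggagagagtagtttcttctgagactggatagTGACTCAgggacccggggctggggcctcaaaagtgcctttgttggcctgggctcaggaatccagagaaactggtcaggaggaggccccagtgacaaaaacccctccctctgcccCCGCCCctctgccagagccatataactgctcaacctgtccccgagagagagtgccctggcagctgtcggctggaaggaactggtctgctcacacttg
CLDN1 at chr3:190322397-190322696 (- strand): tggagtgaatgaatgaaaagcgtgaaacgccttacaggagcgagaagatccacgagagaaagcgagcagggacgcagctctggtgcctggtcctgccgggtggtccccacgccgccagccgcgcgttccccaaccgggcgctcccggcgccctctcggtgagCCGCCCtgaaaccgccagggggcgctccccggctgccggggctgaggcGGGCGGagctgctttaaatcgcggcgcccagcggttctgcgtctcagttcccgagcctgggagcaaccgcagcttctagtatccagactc
CLDN12 at chr7:90403211-90403510 (+ strand): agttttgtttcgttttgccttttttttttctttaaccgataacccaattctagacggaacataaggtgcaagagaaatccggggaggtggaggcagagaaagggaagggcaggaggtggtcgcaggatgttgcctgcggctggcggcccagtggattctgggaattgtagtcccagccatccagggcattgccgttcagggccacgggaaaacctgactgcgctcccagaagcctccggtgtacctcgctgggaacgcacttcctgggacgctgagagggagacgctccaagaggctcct
CLDN7 at chr17:7262429-7262728 (- strand): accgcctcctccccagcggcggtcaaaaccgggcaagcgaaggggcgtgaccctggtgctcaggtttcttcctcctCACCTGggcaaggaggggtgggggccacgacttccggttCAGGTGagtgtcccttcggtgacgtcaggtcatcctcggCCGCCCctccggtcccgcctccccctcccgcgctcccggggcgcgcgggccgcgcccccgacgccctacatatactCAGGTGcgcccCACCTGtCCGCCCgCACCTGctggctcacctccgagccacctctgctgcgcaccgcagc
The CLDN2 windows are poor in CpG, with 1 and 2 CpG and 47.3 and 51.3% GC, and CLDN4 also has few (5 CpG, 59.0% GC), where the median of 35116 RefSeq windows was 14 CpG and 58.7% GC. CLDN1 (31 CpG, 67.0% GC) and this CLDN7 window (30 CpG, 71.7% GC) lie well above that median, and CLDN12 (15 CpG, 56.0% GC) lies near it. A further CLDN7 window, not shown, has 10 CpG and 60.0% GC and holds none of these patterns. An AP-1 pattern stands at -60 in the first CLDN2 window and at -242 and -161 in the CLDN4 window, and 7.71% of all windows hold one. Positions are of the first base of the match, counted from the start site. The Sp1 box, in 45.0% of all windows, is found in CLDN4 at -47, in CLDN1 at -88 and -40, and in CLDN7 at -96 and -2. None of these letter patterns was found in the CLDN12 window or in the second CLDN2 window. E-boxes, in 20.6% of all windows, number 5 in the CLDN7 window shown and occur also in windows of CLDN3, CLDN6 and CLDN14. None is in the windows of CLDN1, CLDN2, CLDN4 or CLDN12. The TATA box (11.5% of all windows), the CDX site (2.54%) and the GRHL site (0.134%) were found in none of the 14 windows of the 9 claudins matched.

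CLDN4 encodes a claudin of many simple epithelia that, with claudin-3, is a receptor for the Clostridium perfringens enterotoxin. It lies on chromosome 7 from 73799542 to 73832693 on the plus strand, 29.3 kb from CLDN3 and in the opposite orientation. CLDN4 had 448.5, 482.2 and 404.1 CPM in resistant replicates 1, 2 and 3, against 199.5, 256.9 and 229.1 CPM in control replicates 1, 2 and 3. Each resistant library lay above each control library. Its log2 fold change was 0.95 (SE 0.10), which rested on 5683 and 2533 counts in resistant and control cells. CLDN4 exceeded CLDN1 per kb by 3.52 ± 0.284 times in resistant and 2.71 ± 0.443 times in control cells, and CLDN7 by 26.8 to 28.3 times in resistant and 8.57 to 13.4 times in control libraries (SD, n = 3 each for the first ratio).

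The neighbour CLDN3 was rare in both groups. CLDN3 had 1.08, 2.12 and 1.02 CPM in resistant replicates 1, 2 and 3 (4, 9 and 5 counts), against 1.03, 2.26 and 3.52 CPM in control replicates 1, 2 and 3 (2, 12 and 12 counts). The groups overlapped, and the counts were below the filter, so that a difference was not detectable at this depth. Between transcripts of CLDN3 and CLDN4, 22 windows of 50 bases are identical, 1.8% of those of CLDN3.

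CLDN1 encodes claudin-1, a barrier claudin of skin and bile duct and a cofactor for entry of hepatitis C virus into hepatocytes. It lies on chromosome 3 from 190305701 to 190322475 on the minus strand, and its start lies 65 bases from that of CLDN16, which runs the other way. CLDN1 had 95.8, 101.1 and 98.6 CPM in resistant replicates 1, 2 and 3, against 54.5, 65.3 and 80.7 CPM in control replicates 1, 2 and 3. Resistant libraries were tightly grouped and above each control library, while control libraries were spread. The log2 fold change was 0.54 (SE 0.14). It was 0.45, 0.51 and 0.71 without control replicate 1, 2 and 3 in turn. CLDN16, a magnesium-channel claudin of the kidney, had 2 counts in resistant replicate 2 and 0 in the other 5 libraries.

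CLDN12 encodes an atypical claudin that lacks the C-terminal PDZ-binding motif of most others and is linked to paracellular calcium transport in mouse. It lies on chromosome 7 from 90383721 to 90513402 on the plus strand. CLDN12 had 102.0, 96.6 and 103.3 CPM in resistant replicates 1, 2 and 3, against 48.8, 62.1 and 73.0 CPM in control replicates 1, 2 and 3, in the same order as CLDN1 within control. No control library reached a resistant one, and the log2 fold change was 0.69 (SE 0.14). Across libraries CLDN1 exceeded CLDN12 per kb by 1.73 to 1.93 times in resistant and 1.94 to 2.05 times in control cells. The CLDN12 counts are not the gene's alone with certainty. GTPBP10, a GTPase gene of the same strand, shares 347 exon bases with it, and 12.6% of the 50-base windows of CLDN12 transcripts occur in transcripts of other genes. GTPBP10 had 65.8, 77.3 and 64.0 CPM in resistant replicates 1, 2 and 3, against 37.5, 33.0 and 39.6 CPM in control replicates 1, 2 and 3 (log2 fold change 0.92, SE 0.16, adjusted p = 2.09e-05 in edgeR). CDK14, also of the same strand, shares 201 exon bases with CLDN12 and was not called (log2 fold change -0.10, SE 0.36, adjusted p = 0.87 in edgeR). AC006153.1 and AC002456.2, of the same strand and without counts of their own here, share 371 and 276 exon bases with CLDN12. How far shared reads enter the CLDN12 difference was not tested.

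CLDN7 encodes a claudin of the lateral membrane that binds EpCAM, and lies on chromosome 17 from 7259903 to 7263983 on the minus strand. CLDN7 had 8.39, 9.4 and 7.98 CPM in resistant replicates 1, 2 and 3, against 12.3, 12.4 and 9.09 CPM in control replicates 1, 2 and 3. Resistant replicate 2 lay above control replicate 3, so the groups overlapped, and the log2 fold change of -0.39 had an SE of 0.34. Of the 50-base windows of CLDN7 transcripts 8.25% also occur in AC003688.1. EPCAM was near 0 in most libraries, with 0.541, 0 and 0.818 CPM in resistant replicates 1, 2 and 3 and 5.14, 0.377 and 1.17 CPM in control replicates 1, 2 and 3.

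CLDN6 and CLDN9 stand 206 bases apart on chromosome 16. CLDN6 is a claudin of embryonic epithelia that returns in some tumours, and CLDN9 is known from the inner ear. CLDN6 had 0, 0 and 0.818 CPM in resistant replicates 1, 2 and 3 (0, 0 and 4 counts), against 6.17, 0.377 and 3.52 CPM in control replicates 1, 2 and 3 (12, 2 and 12 counts). CLDN9 had 0, 0 and 2 counts in resistant replicates 1, 2 and 3, against 2, 2 and 4 counts in control replicates 1, 2 and 3. Both were lowest in resistant replicates 1 and 2 and overlapped between groups through resistant replicate 3 and control replicate 2. Both genes were below the filter, and the transcripts of CLDN9 share 25 windows of 50 bases with those of CLDN6. Of the windows of CLDN6 8.01% occur in other genes' transcripts, and it shares 40 exon bases with TNFRSF12A on the opposite strand.

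CLDN10, whose isoforms form cation or anion channels, had 0, 8 and 2 counts in resistant replicates 1, 2 and 3 and none in control cells, where 0 counts allow up to 0.563 CPM over the group (3 pairs). CLDN10 shares 1558 exon bases with DZIP1 on the opposite strand, which had 20 to 40 counts in resistant and 12 to 24 counts in control libraries, and since the use of strand in counting is not given, these reads cannot be told apart. CLDN14, mutated in a form of inherited deafness, had 0, 1 and 0 counts in resistant replicates 1, 2 and 3, against 0, 2 and 2 counts in control replicates 1, 2 and 3. Neither gene was measurable at this depth. For these rare claudins 2 counts may be 1 read pair.

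The other 14 claudin genes and the 2 claudin-domain genes CLDND1 and CLDND2 were not part of the 10. Of these 16 genes 11 had counts, 3 were tested, and 0 were called in either direction by edgeR, by DESeq2 or by limma-voom, also at an unadjusted p of 0.05 (0 genes). CLDN15, a cation-pore claudin of the intestine, was the most abundant claudin proper among them, with 12.5, 20.2 and 14.5 CPM in resistant replicates 1, 2 and 3, against 7.71, 10.2 and 12.6 CPM in control replicates 1, 2 and 3. The groups overlapped at the lowest resistant and highest control library, and the log2 fold change was 0.60 (SE 0.31, adjusted p = 0.154 in edgeR). CLDN23 had 7.4 ± 2.03 CPM in resistant and 7.98 ± 3.25 CPM in control cells, and CLDND1 61.4 ± 7.31 CPM in resistant and 53.7 ± 5.1 CPM in control cells (SD, n = 3 each). Of the untested genes, CLDN11, the claudin of myelin and testis, had 22 counts in resistant replicate 3 and at most 4 elsewhere. CLDN5, the endothelial claudin, had 10 counts in resistant replicate 3, 6 in resistant replicate 2, 4 in control replicate 3 and 0 in the others. Resistant replicate 3 is also the library with the most VWF (26.2 CPM, against at most 1.76 CPM elsewhere) and CDH5 (19.2 CPM, against at most 3.09 CPM). The endothelial marker PECAM1 had 41.7 CPM in it but 43.2 CPM in control replicate 1, and KDR had 42.6 CPM against 20.1 to 36.3 CPM elsewhere. The part of these transcripts in CLDN5 and CLDN11 was not tested. CLDN18 had 8 counts in resistant and 7 in control cells, CLDN20 8 in resistant and 4 in control cells, CLDND2 24 in resistant and 18 in control cells, and CLDN17 and CLDN19 had 2 counts each in control cells and 0 in resistant cells.

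Tight junction genes other than claudins were counted in the same fit, from lists drawn up with earlier results of these data known. Of 39 partner genes counted, 29 were tested, of which 0 were called higher and 4 lower by edgeR, 13.8% against 24.1% of all tested genes called in either direction and 12.3% called lower, with a median log2 fold change of 0.014. At an unadjusted p of 0.05 in edgeR the counts were 1 higher and 4 lower, DESeq2 called 0 higher and 4 lower, and limma-voom called 1 higher and 4 lower. Among 7 tested membrane proteins the adhesion molecule JAM3 was lower, with 5.66 ± 2.19 CPM in resistant and 13.8 ± 1.04 CPM in control cells (log2 fold change -1.26, SE 0.36, adjusted p = 0.00878 in edgeR; SD, n = 3 each). Occludin, OCLN, had 37.6 ± 9.24 CPM in resistant and 31.4 ± 1.03 CPM in control cells (adjusted p = 0.352 in edgeR), and ESAM, the most abundant of the membrane proteins per kb, had 74.3 ± 11.4 CPM in resistant and 70.6 ± 0.571 CPM in control cells (adjusted p = 0.77).

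Among 13 tested scaffolds 2 were lower. ZO-3, TJP3, had 1.08, 2.35 and 0 CPM in resistant replicates 1, 2 and 3, against 9.77, 5.46 and 5.28 CPM in control replicates 1, 2 and 3 (log2 fold change -2.54, SE 0.69, adjusted p = 0.00563 in edgeR). Leaving out 1 library moved this fold change from -3.68, without resistant replicate 2, to -1.90, without resistant replicate 3, with an adjusted p of up to 0.048. Cingulin, CGN, which binds the ZO proteins, had 33.8, 35.0 and 29.3 CPM in resistant replicates 1, 2 and 3, against 54.5, 53.5 and 46.9 CPM in control replicates 1, 2 and 3 (log2 fold change -0.66, SE 0.17, adjusted p = 0.00315 in edgeR). Both had every resistant library below every control library, as did 18.9% of all tested genes. ZO-1, TJP1, the main scaffold of these cells, had 665.0 ± 45.2 CPM in resistant and 697.6 ± 29.2 CPM in control cells, and its log2 fold change of -0.07 (SE 0.09) was not called. AMOTL2, an angiomotin-like scaffold, missed the threshold narrowly at a log2 fold change of 0.31 (SE 0.12, adjusted p = 0.0503 in edgeR), and passed it in limma-voom (0.0379), with at least 1 CPM in 3 libraries (0.044) and on halved counts (0.0426). Of 9 tested polarity genes LLGL2, which marks the basolateral side, was lower, with 36.2 ± 2.65 CPM in resistant and 54.9 ± 10.1 CPM in control cells (log2 fold change -0.60, SE 0.17, adjusted p = 0.00722 in edgeR, and 0.114 without control replicate 3). PARD6B, the most abundant polarity gene per kb, had 90.7 ± 5.21 CPM in resistant and 86.4 ± 6.93 CPM in control cells and was not called.

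**Figure D3:**
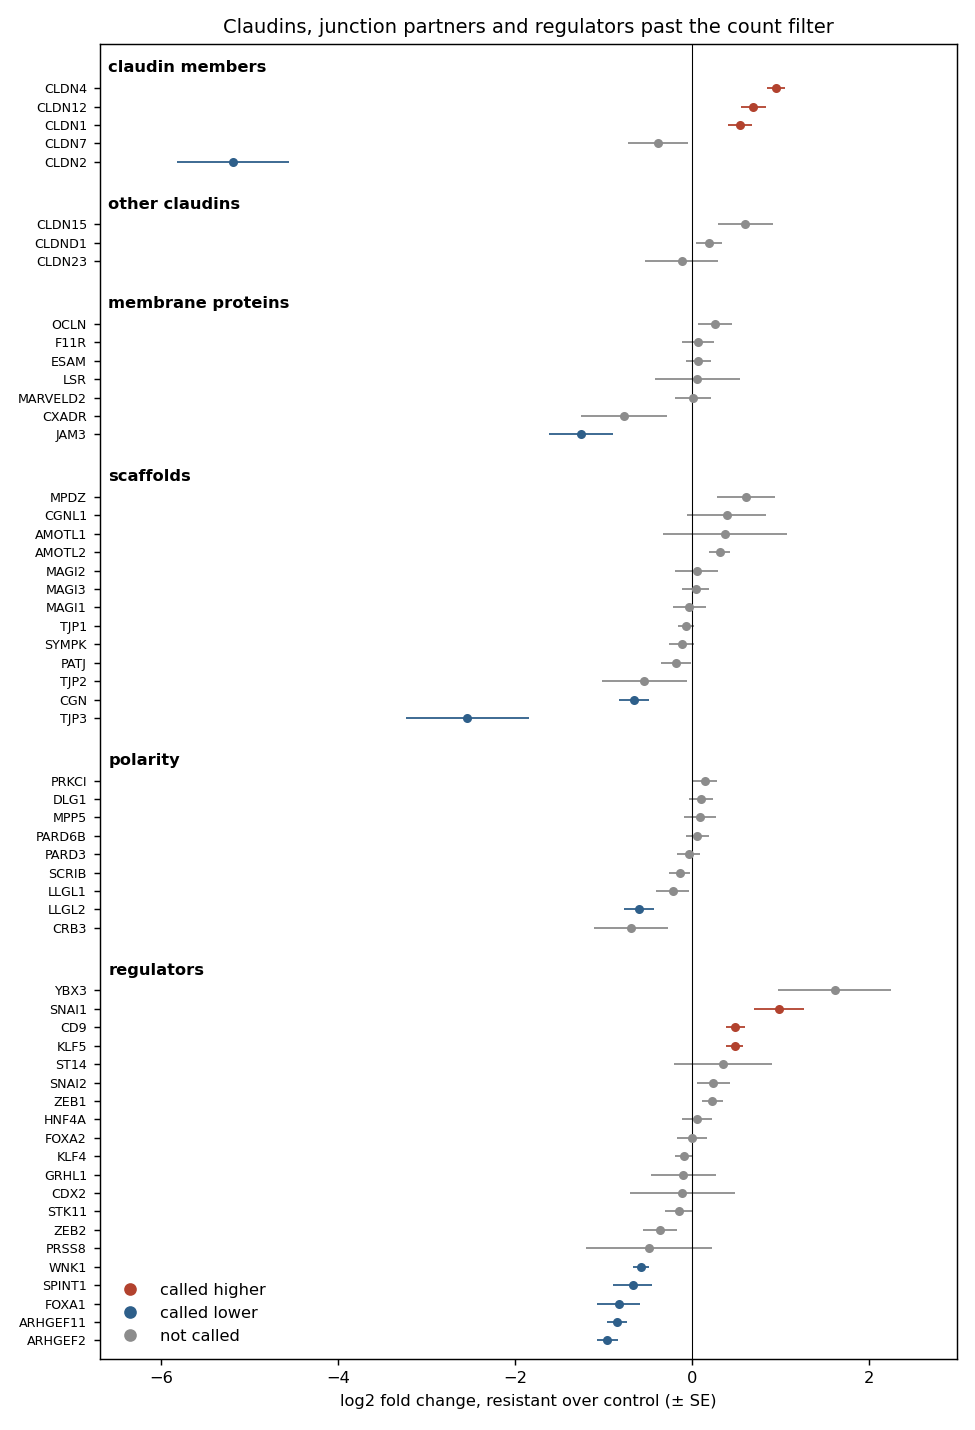
Log2 fold change of resistant over control cells (± SE) for the tested claudins, junction partners and regulators (1 uncalled regulator not drawn), coloured by the call at an adjusted p of 0.05 over all genes. CLDN2 lies at -5.19 and CLDN4, CLDN12 and CLDN1 at 0.95, 0.69 and 0.54, and the called partner genes (JAM3, TJP3, CGN and LLGL2) lie below 0.

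Of 29 genes known to act on claudins or on epithelial identity, 21 were tested, 3 were higher and 5 lower, 38.1% against 24.1% of all tested genes. This list was drawn up with earlier results of these data known, so the share is a description. Without control replicate 1, or without resistant replicate 2, 3 were lower. The guanine nucleotide exchange factors ARHGEF2, which is held at tight junctions by cingulin, and ARHGEF11, which binds ZO-1, were lower. ARHGEF2 had 89.9, 72.6 and 95.1 CPM in resistant replicates 1, 2 and 3, against 157.3, 176.7 and 166.3 CPM in control replicates 1, 2 and 3 (log2 fold change -0.96, SE 0.12, adjusted p = 4.81e-08 in edgeR). ARHGEF11 had 126.2 ± 19.5 CPM in resistant and 227.3 ± 9.55 CPM in control cells (log2 fold change -0.85, SE 0.11, adjusted p = 1.71e-07 in edgeR). The kinase WNK1, of a family that phosphorylates claudins, had 661.4 ± 49.4 CPM in resistant and 992.1 ± 70.9 CPM in control cells (log2 fold change -0.58, SE 0.09). All 3 of these genes had resistant libraries wholly below control libraries, as did 18.9% of all tested genes.

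The tetraspanin CD9, a partner of claudin-1, was higher, with 282.9, 250.1 and 267.6 CPM in resistant replicates 1, 2 and 3, against 150.1, 205.8 and 206.2 CPM in control replicates 1, 2 and 3 (log2 fold change 0.49, SE 0.11, adjusted p = 0.000588 in edgeR). KLF5, a transcription factor of proliferating epithelium, was also higher, with 228.8 ± 15.2 CPM in resistant and 164.4 ± 11.6 CPM in control cells (log2 fold change 0.48, SE 0.10). SNAI1, a repressor that binds E-boxes in claudin and cadherin promoters, was higher too, with 30.9, 26.1 and 22.7 CPM in resistant replicates 1, 2 and 3, against 4.63, 15.1 and 18.2 CPM in control replicates 1, 2 and 3 (log2 fold change 0.98, SE 0.28, adjusted p = 0.0074 in edgeR). Without control replicate 1, where its level was lowest, the log2 fold change of SNAI1 was 0.69 (adjusted p = 0.0436 in edgeR). Also in the list, SNAI2 (log2 fold change 0.24, SE 0.19, adjusted p = 0.411 in edgeR) and ZEB1 (0.23, SE 0.12, adjusted p = 0.183) were not called. Neither was ZEB2 (-0.36, SE 0.19, adjusted p = 0.172 in edgeR), and TWIST1 had 0 counts in all 6 libraries. The part of SNAI1 in the claudin values was not tested. FOXA1, a pioneer factor of liver, was lower, with 16.7 ± 3.54 CPM in resistant and 30.8 ± 9.58 CPM in control cells (adjusted p = 0.00926 in edgeR, and 0.0981 without control replicate 1 and 0.069 without resistant replicate 2). FOXA2 (48.2 CPM in resistant and 47.9 CPM in control cells on average) and HNF4A (41.4 CPM in resistant and 39.8 CPM in control cells) were not called. SPINT1, an inhibitor of membrane proteases, had a log2 fold change of -0.67 (SE 0.22) with an edgeR adjusted p = 0.0206, which was above 0.05 when leaving out control replicate 1 (0.0716), control replicate 3 (0.102) or resistant replicate 2 (0.119). CDX2, a factor known to drive CLDN2 in intestine, was not called, at a log2 fold change of -0.11 (SE 0.59).

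Genes around the claudins were examined apart from the 10, by a test chosen with earlier results of these data known. Not all of them are separate from the claudin counts. DZIP1 shares 1558 exon bases with CLDN10, GTPBP10 347 and CDK14 201 with CLDN12, TNFRSF12A 40 with CLDN6 and ELP5 38 with CLDN7. How far shared reads enter the counts of these neighbours was not tested. Within 500 kb of a claudin 87 other genes were tested, of which 10 were higher and 9 lower, 21.8% against 24.1% of all tested genes. Without control replicate 3, 5 were higher. CLDN2 had 6 tested neighbours and 1 called, RNF128, a ubiquitin ligase gene at -103.2 kb (44.7 CPM in resistant and 96.0 CPM in control cells on average, log2 fold change -1.10, SE 0.14). MORC4, which overlaps CLDN2 on the opposite strand, had 92.3, 63.9 and 75.1 CPM in resistant replicates 1, 2 and 3, against 120.8, 66.9 and 88.0 CPM in control replicates 1, 2 and 3, and was not called (adjusted p = 0.335 in edgeR). RIPPLY1, which shares 341 exon bases with CLDN2 on the opposite strand, had 0 counts in all 6 libraries. CLDN4 had 14 tested neighbours, of which the syntaxin gene STX1A (log2 fold change 0.57, SE 0.12, adjusted p = 0.000392 in edgeR) and TBL2 (0.49, SE 0.15, adjusted p = 0.0147) were higher and 1 gene was lower. The adjusted p of TBL2 was 0.0886 on leaving out control replicate 1, 0.0518 on leaving out control replicate 2 and 0.0579 on leaving out resistant replicate 3.

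CLDN12 had 4 tested neighbours, of which 3 were called. GTPBP10, given above, was higher like CLDN12, while the metalloreductase genes STEAP1 and STEAP2, at -218.9 and -145.6 kb, were lower, each at a log2 fold change of -1.33 (SE 0.17 and 0.15). Neither of the 2 tested neighbours of CLDN1 and none of the 4 of CLDN10 was called by edgeR at an adjusted p of 0.05. Of 24 tested genes around CLDN7, 2 were higher, among them TNK1 (log2 fold change 1.27, SE 0.29), and 1 was lower, POLR2A (-0.48, SE 0.10). Of the 24 tested around CLDN6 and CLDN9, 4 were higher, among them KCTD5 (0.57, SE 0.13) and the TNFRSF12A gene that overlaps CLDN6 (0.33, adjusted p = 0.0113 in edgeR), and 1 was lower, FLYWCH1 (-0.62, SE 0.16). Of the 9 tested around CLDN14, 3 were lower, among them TTC3 (-0.49, SE 0.11), and 1 was higher, RUNX1 (0.50, SE 0.15). The edgeR adjusted p of RUNX1 was 0.0588 when control replicate 1 was left out, 0.0572 when control replicate 3 was and 0.104 when resistant replicate 2 was.

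**Figure D4:**
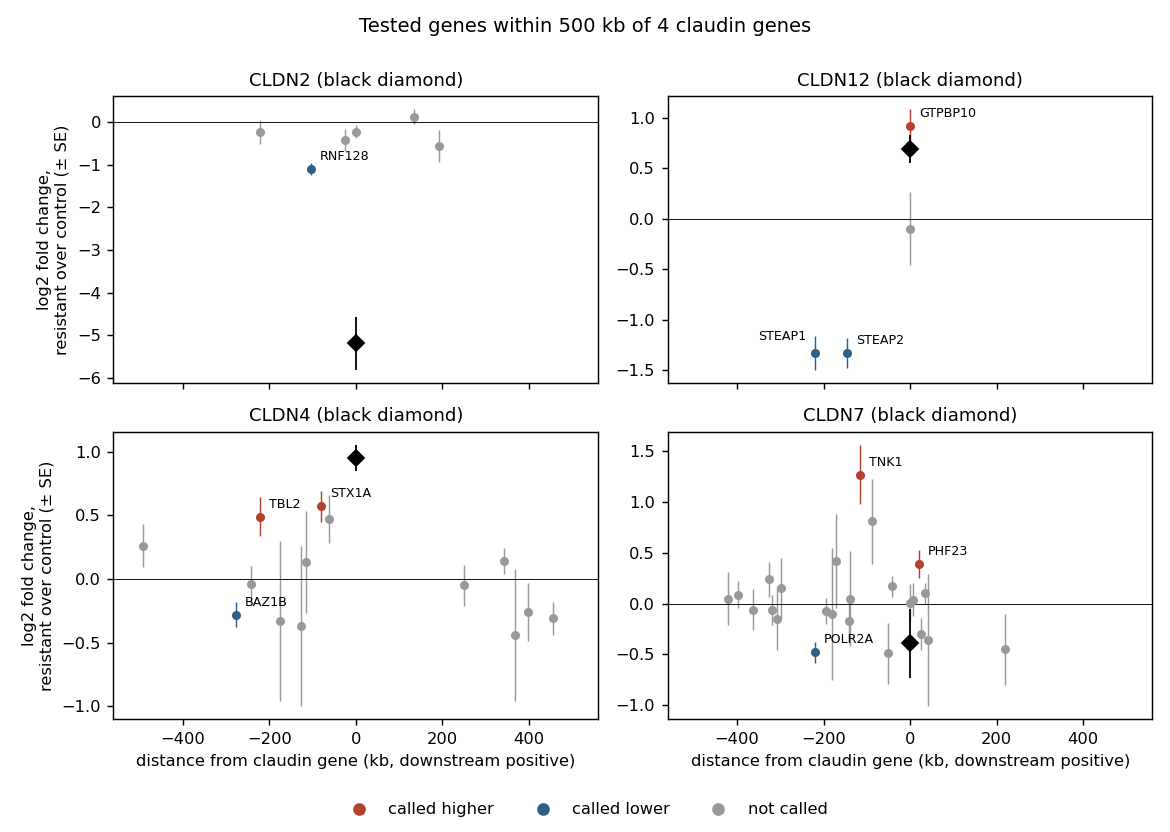
Log2 fold change of resistant over control cells (± SE) of tested genes against their distance in kb from CLDN2, CLDN12, CLDN4 and CLDN7, with the claudin itself as a black diamond at 0. No tested gene near CLDN2 lies lower than RNF128 at -1.10, and near CLDN12 GTPBP10 at 0.92 and STEAP1 and STEAP2 at -1.33 lie on opposite sides of 0.

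The tested genes of at least 5 CPM whose levels ran most like those of a claudin over the 6 libraries were found by the root mean square difference of centred log2 CPM. Nearest to CLDN2 were the cytochrome gene CYP2B6 (0.71), the anion transporter gene SLC26A9 (0.81) and the B-cell coactivator gene POU2AF1 (1.02). Of these, SLC26A9 had 0.541, 0.94 and 0.409 CPM in resistant replicates 1, 2 and 3, against 14.4, 5.65 and 10.6 CPM in control replicates 1, 2 and 3, with control replicate 2 lowest of the control libraries as for CLDN2. Nearest to CLDN4 were FAM98A (0.05), ZC3H8 (0.07) and PDE12 (0.07), and nearest to CLDN1 were TXLNG (0.04), ZNF496 (0.05) and VPS25 (0.06), on the same log2 scale.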

How the data were processed

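Libraries were sequenced from total RNA of resistant and control MHCC97H cells, 3 each. The authors deposited raw counts for each gene symbol. Trimmomatic, HISAT2 and Bowtie2 are listed, per the submitters' processing notes. The sources used here do not give the read counter, genome build, annotation or use of strand. The columns of the series table equalled the single-library files, and 27 symbols that had become dates were renamed from the Entrez ID. Of non-zero counts 63.6 to 69.1% were even, as when both mates of a pair are counted, so limits at 0 counts were set at 3 pairs (6 counts) after this was seen.

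Genes were filtered with filterByExpr, scaled by TMM and tested with edgeR 4.0.16 (quasi-likelihood F test, R 4.3.3), group as the only term, with Benjamini-Hochberg adjustment over all 10804 tested genes and calls at 0.05. The SE is the log2 fold change over the square root of F. Between replicates, halved counts gave 1.8 to 3 as chi-square over its degrees of freedom, so none was counted as a duplicate. The members, gene lists, tests and motifs were chosen with earlier results of these data known, and the motifs after the member values were seen. Genes named are all 10 claudins, the called list genes (up to 4 per direction), the top gene per length of each list, up to 2 called neighbours per claudin, and other claudins with counts. OCLN, AMOTL2, CDX2, MORC4, RIPPLY1, DZIP1, TNFRSF12A, AC003688.1, SPINT1 and GTPBP10 were added after their values were seen. So were CDK14, ELP5, AC006153.1, AC002456.2, SNAI2, ZEB1, ZEB2, TWIST1, FOXA2 and HNF4A. The values of 1 regulator and of 1 motif are not reported here. Exon lengths and gene spans are from GENCODE 29 (19133 symbols placed once), and promoter windows from RefSeq, matched for 9 of the 10 claudins. Alternatives included DESeq2 1.42.0 and voom of limma 3.58.1. Figures were drawn with matplotlib 3.10.9.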

Additional observations from a re-analysis of the deposited data

How the results depend on the processing

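Replicate numbers are shared between the groups, but libraries of the same number did not deviate together (correlations across genes of -0.015, 0.033 and -0.006), so the numbers do not pair them. With the replicate as a block, edgeR called 1248 genes higher and 1270 lower, against 1269 and 1332, and it changed no call of the junction partners, regulators, other claudins or neighbours recomputed. Over 15 alternatives the log2 fold change of CLDN4 ran from 0.88 to 1.05, of CLDN1 from 0.45 to 0.71, of CLDN12 from 0.59 to 0.84 and of CLDN7 from -0.52 to -0.30. That of CLDN2 ran from -9.13 (without resistant replicate 2, where the other 2 resistant libraries are at 0) to -4.53 over left-out libraries. At an adjusted p of 0.01 the counts fell to 800 genes higher and 851 lower, and to 4 higher within 500 kb of a claudin. Leaving out single libraries gave 5 to 9 higher genes within 500 kb and 3 to 5 lower regulators, the low end without control replicate 3 for the first and without control replicate 1 or resistant replicate 2 for the second. Tight junction partners had 1 gene called higher, AMOTL2, in limma-voom, with at least 1 CPM in 3 libraries and on halved counts. With the longest transcript as length, the shares in resistant cells were 62.9% for CLDN4, 16.7% for CLDN1, 16.7% for CLDN12 and 2.63% for CLDN7, and 15.9% for CLDN12 in control cells. Without division by length they were 15.0% and 16.9% for CLDN1 in resistant and control cells, 15.4% and 15.5% for CLDN12, 1.31% and 2.91% for CLDN7, and 0.212% and 0.561% for CLDN3, since longer genes then weigh more. Over left-out libraries CLDN23 ran from -0.35 to 0.28, changing sign without control replicate 3 (0.28) and resistant replicate 2 (0.00), and ESAM from -0.03, without resistant replicate 2, to 0.19, none of them called. Depth limits what can be said of CLDN3, CLDN6, CLDN9, CLDN10 and CLDN14.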
